A study of Mus musculus with 15 samples.

Results

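Efferocytosis is the clearance of dying cells by phagocytes, and the 7 genes described here encode receptors and soluble proteins through which a phagocyte recognises phosphatidylserine on the surface of such a cell. They were chosen by name: the 3 receptor tyrosine kinases of the TAM family (Tyro3, Axl and Mertk), the bridging ligands Gas6, Pros1 and Mfge8, and the phosphatidylserine receptor Timd4. The deposited table held 55486 genes, and each of the 7 symbols was matched to 1 of them. RNA had been sequenced in bulk from macrophages sorted by flow cytometry from primary mouse brain tumours of the PDG-Ink4a model, in which Nestin-positive progenitor cells are made to express PDGFB on an Ink4a/Arf-knockout background. The 15 libraries fell into 4 groups, which share that genotype and tissue: lipid-laden monocyte-derived macrophages (MDM; 3 libraries), non-lipid-laden MDM (4 libraries), lipid-laden microglia (4 libraries) and non-lipid-laden microglia (4 libraries). Microglia are the resident macrophages of the brain, and MDM enter the tumour from the blood. The numbers 224, 221, 431 and 718 in the labels name the replicates, and lipid-laden MDM of number 431 were not analysed here. No treatment was named for these libraries. The age of the mice, the lipid stain, the sorting gates, whether a number stands for 1 mouse and whether mice were pooled were not stated in the labels, so the p-values measure the spread between these libraries, which may be partly technical. Gene-level p-values below are from edgeR's quasi-likelihood test over 14843 genes, with Benjamini-Hochberg adjustment and a threshold of 0.05.

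The TAM receptors do not bind phosphatidylserine themselves. GAS6 binds all members of the family and protein S (the product of Pros1) binds TYRO3 and MERTK, and each ligand bridges the receptor to phosphatidylserine on the dying cell. MFG-E8, the product of Mfge8, bridges phosphatidylserine to the integrins alpha-v beta-3 and alpha-v beta-5. TIM-4, the product of Timd4, binds phosphatidylserine directly and is known from resident macrophages of the peritoneal cavity and other tissues. In the brain, microglia are known to use MERTK and AXL in the clearance of dying cells. MERTK is cut from the cell surface by the protease ADAM17, and liver X receptors are known to raise Mertk transcription in macrophages that have taken up dying cells.

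In genome coordinates (mm10, as in the deposited table), Mertk lies on chromosome 2 at 128698956 to 128802894 (plus strand) and Tyro3 on the same chromosome at 119797733 to 119818104 (plus strand). Axl (25757273 to 25788705) and Mfge8 (79133768 to 79149060) lie on the minus strand of chromosome 7. Gas6 lies on chromosome 8 at 13465374 to 13494490 (minus strand), Pros1 on chromosome 16 at 62854307 to 62929346 (plus strand) and Timd4 on chromosome 11 at 46810800 to 46844332 (plus strand). An exon of Gas6 overlaps an exon of Tmem255b on the opposite strand, to which 203 counts were assigned over all 15 libraries together. An intron of Mertk holds the antisense gene Gm14011 and the small nucleolar RNA gene Gm23172, with 7 and 9 counts in all. Nothing in the labels says whether counting used strand, so reads of the exon bases shared by Gas6 and Tmem255b cannot be told apart. The exons of Gm14011 and Gm23172 do not overlap those of Mertk.

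The 250 bases before the RefSeq start of 5 of the genes are printed here (RefSeq, GRCm38.p6, the assembly that mm10 names), since Mertk, Gas6 and Pros1 were lowest in the same group and Axl and Timd4 had other patterns. Each runs from 5′ to 3′ on the gene's strand, and capitals mark the GC box GGGCGG and the PU.1 box GAGGAA, either as written or as the reverse complement. PU.1 is a transcription factor of myeloid cells, and the GC box is bound by SP1 and its relatives.

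Mertk, chr2:128698665-128698914, plus strand: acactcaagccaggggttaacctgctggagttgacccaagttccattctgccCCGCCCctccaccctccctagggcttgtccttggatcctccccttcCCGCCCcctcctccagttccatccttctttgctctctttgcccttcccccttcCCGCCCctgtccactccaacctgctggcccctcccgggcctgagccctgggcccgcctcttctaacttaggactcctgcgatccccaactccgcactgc

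Gas6, chr8:13494536-13494785, minus strand: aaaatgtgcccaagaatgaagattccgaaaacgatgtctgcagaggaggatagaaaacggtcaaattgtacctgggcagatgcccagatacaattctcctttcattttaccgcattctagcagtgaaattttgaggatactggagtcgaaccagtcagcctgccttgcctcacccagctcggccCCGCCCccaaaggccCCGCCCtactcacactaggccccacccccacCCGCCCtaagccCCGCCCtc

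Pros1, chr16:62854057-62854306, plus strand: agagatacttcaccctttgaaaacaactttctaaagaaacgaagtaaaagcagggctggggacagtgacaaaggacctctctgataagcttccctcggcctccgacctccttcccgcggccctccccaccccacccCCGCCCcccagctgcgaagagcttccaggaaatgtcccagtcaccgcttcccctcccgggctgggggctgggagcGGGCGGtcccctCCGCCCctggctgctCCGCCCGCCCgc

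Axl, chr7:25788734-25788983, minus strand: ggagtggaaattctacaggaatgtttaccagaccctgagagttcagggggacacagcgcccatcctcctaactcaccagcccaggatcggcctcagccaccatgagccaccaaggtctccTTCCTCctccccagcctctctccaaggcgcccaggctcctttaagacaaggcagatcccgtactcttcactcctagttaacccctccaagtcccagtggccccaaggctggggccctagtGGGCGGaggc

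Timd4, chr11:46810549-46810798, plus strand: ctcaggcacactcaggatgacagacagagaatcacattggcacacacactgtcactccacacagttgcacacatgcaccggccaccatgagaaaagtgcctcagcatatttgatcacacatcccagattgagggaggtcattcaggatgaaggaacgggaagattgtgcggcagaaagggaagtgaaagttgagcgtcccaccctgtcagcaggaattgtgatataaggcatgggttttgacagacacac

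The same window of all 7 genes was searched on both strands. The GC box was found 3 times for Mertk, 1 time for Axl, 3 times for Tyro3, 4 times for Gas6, 5 times for Pros1 (with an overlap between the last matches, seen above as a longer run of capitals), 4 times for Mfge8 and 0 times for Timd4. At least 1 GC box was present in 32.7% of the same window in 32851 RefSeq promoters. The PU.1 box was found 1 time each for Axl and Mfge8 and in 23.3% of all promoters. The nuclear receptor half-site AGGTCA was found 1 time, for Timd4, and in 14.0% of all promoters. Neither the E-box CACGTG (6.02% of all promoters) nor the AP-1 site TGANTCA (6.75%) was found in any of the 7 windows. GC content was 63.6% for Mertk, 54.8% for Gas6, 64.4% for Pros1, 60.0% for Axl and 50.0% for Timd4, against a median of 52.4% over all promoters. A match of these letters is a description of the window and not a measured binding site.

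The libraries held 7798952 to 11419338 counts each. The first principal component of log2 counts per 1000000 counts (CPM) held 36.2% of the variance and set apart non-lipid-laden MDM, lipid-laden MDM and the microglia of both kinds. The second held 11.1%, and on it the lipid-laden libraries of number 221 stood apart, at -119 for microglia and -67.4 for MDM, against -29.2 to 61.7 in the other libraries, so values without both of these libraries are given where they bear on a result. The labels were checked against marker genes. The 10 microglia markers summed to 6567 to 9359 CPM in lipid-laden MDM, 2139 to 3547 CPM in non-lipid-laden MDM, 5953 to 15594 CPM in lipid-laden microglia and 9181 to 14036 CPM in non-lipid-laden microglia. The 10 markers of monocyte-derived macrophages summed to 5366 to 6564 CPM in lipid-laden MDM, 6245 to 6677 CPM in non-lipid-laden MDM, 1663 to 2476 CPM in lipid-laden microglia and 1184 to 2057 CPM in non-lipid-laden microglia. The sorted MDM therefore held microglia marker RNA, and lipid-laden MDM held more of it than non-lipid-laden MDM. The 8 dendritic cell markers summed to 158 to 195 CPM in lipid-laden MDM, 896 to 2350.3 CPM in non-lipid-laden MDM, 6.23 to 18.7 CPM in lipid-laden microglia and 21.7 to 38.9 CPM in non-lipid-laden microglia.

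**Figure D1:**
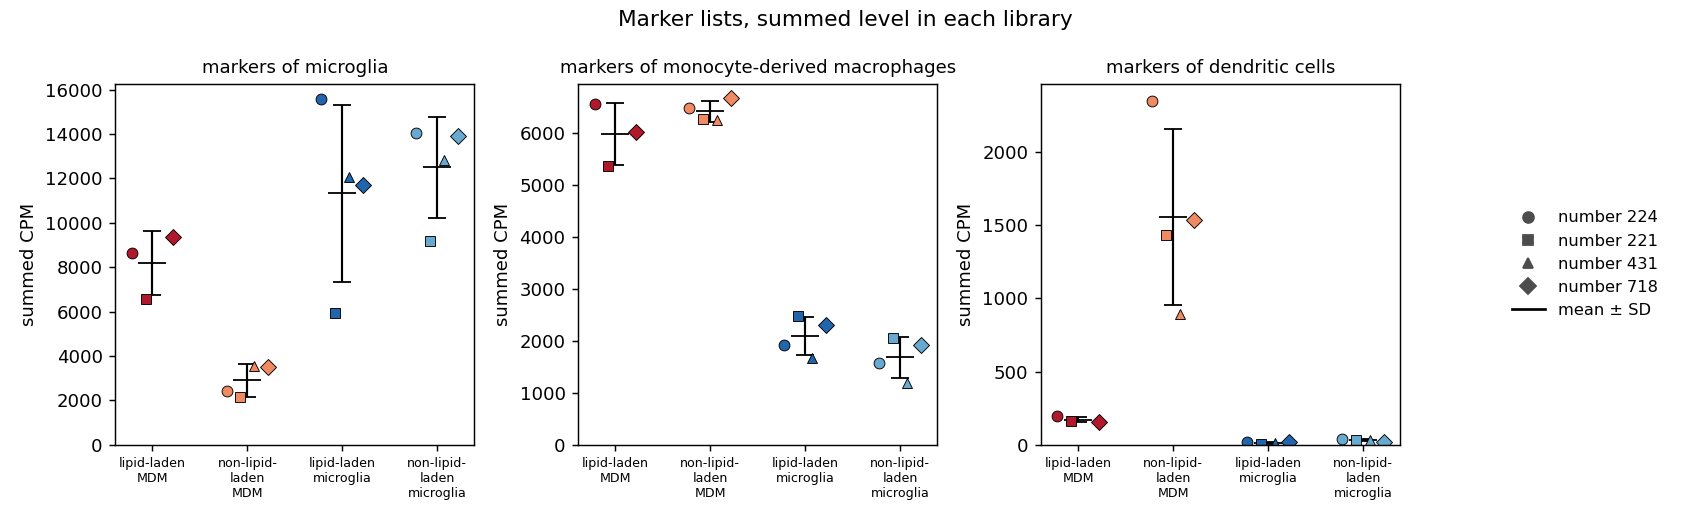
Summed CPM of the markers of microglia, monocyte-derived macrophages and dendritic cells (vertical axes, linear from 0) in each library of the 4 groups (horizontal axis). Symbols give the replicate number and bars the mean and SD, and the dendritic cell markers lie at 896 CPM or more in all 4 non-lipid-laden MDM libraries and at 195 CPM or less in all others.

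Mertk, Axl, Gas6, Pros1 and Mfge8 had counts in all 15 libraries, while Tyro3 and Timd4 were low or at 0 in many. Tyro3 reached the minimum level of the filter on low counts (1.07 CPM) in 5 libraries, and Timd4 reached it in 8, which were all 7 MDM libraries and 1 of non-lipid-laden microglia. All 7 genes passed the filter and were tested. To compare levels between genes, CPM were divided by the length of the merged exons in kilobases (CPM per kb). In lipid-laden MDM the mean levels were 115 ± 54.6 CPM per kb for Gas6, 92.6 ± 27.5 for Pros1, 85.1 ± 30.0 for Axl and 43.6 ± 1.90 for Mertk (SD, n = 3). In non-lipid-laden MDM, Axl led at 66.1 ± 9.16 CPM per kb, before Pros1 at 29.2 ± 5.22, Gas6 at 25.0 ± 10.1 and Mertk at 18.7 ± 5.82 (SD, n = 4). By mean level a ligand thus stood first in lipid-laden MDM and a receptor in non-lipid-laden MDM. In lipid-laden microglia, Gas6 stood at 175 ± 47.0 CPM per kb, Pros1 at 106 ± 13.6, Mertk at 45.1 ± 3.39 and Axl at 28.7 ± 5.41 (SD, n = 4). Non-lipid-laden microglia had the same order, with Gas6 at 155 ± 23.0, Pros1 at 139 ± 28.9, Mertk at 58.6 ± 8.95 and Axl at 32.7 ± 6.45 CPM per kb (SD, n = 4). The ranges of Gas6 and Pros1 overlapped in every group. In lipid-laden MDM the range of Axl overlapped those of both Gas6 and Pros1, and in non-lipid-laden MDM that of Mertk did so. Axl lay above Mertk in every MDM library and below it in every microglia library. Mfge8 (9.68 to 13.6 CPM per kb as group means) was below these genes in every group, and Timd4 came near it only in non-lipid-laden MDM, at 13.3 ± 2.14 against 13.6 ± 5.09 for Mfge8. Since the RNA was pooled over sorted cells, a lower level cannot be told apart between fewer cells that express a gene and less RNA in each cell.

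**Figure D2:**
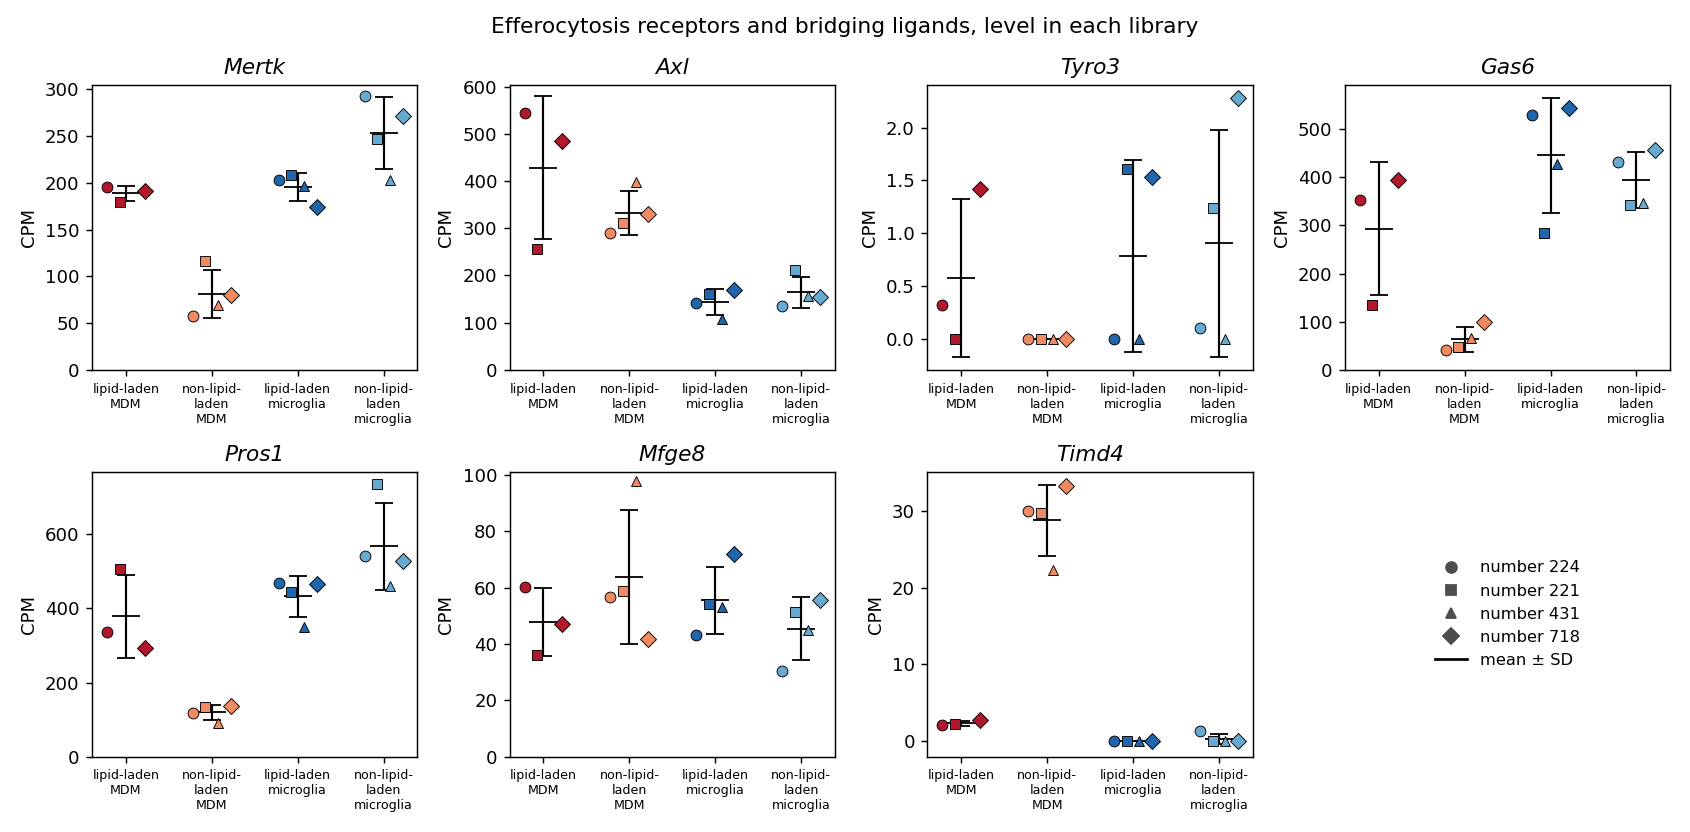
CPM of each of the 7 genes (vertical axes, linear) in every library of the 4 groups (horizontal axis), with symbols for the replicate numbers and bars for the mean and SD. Mertk, Gas6 and Pros1 are lowest in non-lipid-laden MDM, Axl is higher in MDM than in microglia, and Timd4 is above 20 CPM in non-lipid-laden MDM alone.

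Where neither is lipid-laden, MDM and microglia differ by origin. Mertk, Gas6 and Pros1 were lower in MDM, while Axl and Timd4 were higher. Thus 5 of the 7 genes were called, 2 higher and 3 lower, where 23.2% of all genes tested were called (10.7% higher and 12.5% lower). The CPM ranges of the groups did not overlap for the same 5 genes, against 28.6% of all genes.

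Mertk, whose product takes up phosphatidylserine-bearing cells through GAS6 or protein S, had 58.2, 117, 69.5 and 80.0 CPM in non-lipid-laden MDM of numbers 224, 221, 431 and 718, against 293, 247, 203 and 272 CPM in non-lipid-laden microglia. All 4 MDM libraries were below all microglia libraries. The difference was -1.65 on the log2 scale (SE 0.19, edgeR adjusted p = 1.39e-05). Gas6 had 41.1, 48.5, 65.7 and 99.2 CPM in non-lipid-laden MDM and 432, 342, 347 and 456 CPM in non-lipid-laden microglia. The groups did not overlap, and the difference was -2.63 (SE 0.34, edgeR adjusted p = 4.26e-05). Pros1 had 117, 134, 89.7 and 136 CPM in non-lipid-laden MDM and 542, 736, 461 and 528 CPM in non-lipid-laden microglia. Again no MDM library reached the lowest microglia library, and the difference was -2.25 (SE 0.20, edgeR adjusted p = 1.94e-06). The mean in MDM was 0.319 of that in microglia for Mertk, 0.161 for Gas6 and 0.210 for Pros1.

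Axl, the TAM receptor known for its rise in inflamed tissue, had 289.7, 312, 397 and 331 CPM in non-lipid-laden MDM and 135, 211, 157 and 155 CPM in non-lipid-laden microglia. Every MDM library exceeded every microglia library, with a log2 difference of 1.01 (SE 0.22, edgeR adjusted p = 0.00326). Timd4 had 298, 255, 171 and 367 counts in non-lipid-laden MDM (30.0, 29.7, 22.3 and 33.2 CPM), against 12 counts in non-lipid-laden microglia of number 224 (1.29 CPM) and 0 in the other 3. Its ratio of mean CPM was 89.3 and its log2 difference 6.39 (SE 1.09, edgeR adjusted p = 0.00106). Both values rest on those 12 counts. When 1 library was left out the fitted log2 difference was 5.99 to 11.07 (edgeR adjusted p 2.54e-05 to 0.00406), the highest without non-lipid-laden microglia of number 224, where the remaining microglia were all at 0 and the fitted value sets no bound. Timd4 in these MDM thus stood apart from microglia in all 4 replicates. All 8 dendritic cell markers, 6 of 8 markers of T and NK cells and all 10 markers of monocyte-derived macrophages were also higher in these MDM, and all 10 microglia markers and all 8 markers of glioma and progenitor cells were lower. Their part in the differences was not tested.

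Mfge8 and Tyro3 did not pass the threshold. Mfge8 had 56.5, 58.7, 97.7 and 41.9 CPM in non-lipid-laden MDM and 30.3, 51.2, 44.8 and 55.5 CPM in non-lipid-laden microglia. The groups overlapped, with a log2 difference of 0.49 (SE 0.27, edgeR adjusted p = 0.215). Tyro3, a TAM receptor best known from neurons, had 0 counts in all 4 MDM libraries, against 1, 12, 0 and 18 counts in non-lipid-laden microglia. At a floor of 3 counts over the group, which covers counting error only, its mean was at least 10.9-fold lower in MDM. The difference was not called (edgeR adjusted p = 0.0785), and 1 microglia library was also at 0.

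The next comparison set lipid-laden against non-lipid-laden MDM. Mertk and the bridging ligand genes Gas6 and Pros1 were all higher in lipid-laden MDM. These were 3 of the 7 genes, all higher, where 8.17% of all genes were called (5.21% higher and 2.96% lower). The ranges of the groups did not overlap for these 3 and for Timd4, thus for 4 of the 7, against 21.8% of all genes. The non-lipid-laden MDM also served in the comparison above, so a high or low value in them enters both with opposite signs.

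Mertk had 196, 180.0 and 191 CPM in lipid-laden MDM of numbers 224, 221 and 718, against 58.2, 117, 69.5 and 80.0 CPM in non-lipid-laden MDM. The lipid-laden libraries were close to each other and all above the non-lipid-laden ones, with a log2 difference of 1.22 (SE 0.20, edgeR adjusted p = 0.00121) and a ratio of means of 2.33. Gas6 had 352, 135 and 394 CPM in lipid-laden MDM and 41.1, 48.5, 65.7 and 99.2 CPM in non-lipid-laden MDM. The groups did not overlap, although the lipid-laden library of number 221 was well below the other two, and the log2 difference was 2.21 (SE 0.35, edgeR adjusted p = 0.00103). Pros1 had 337, 506 and 293 CPM in lipid-laden MDM and 117, 134, 89.7 and 136 CPM in non-lipid-laden MDM. All lipid-laden libraries were again higher, with number 221 the highest this time, and the log2 difference was 1.67 (SE 0.21, edgeR adjusted p = 0.000212). The ratio of means was 4.62 for Gas6 and 3.18 for Pros1, and each of the 3 genes was higher in the lipid-laden library in 3 of 3 number-matched pairs. Without both lipid-laden libraries of number 221 the log2 differences were 1.25 for Mertk, 2.55 for Gas6 and 1.40 for Pros1, and all were still called (edgeR adjusted p = 0.00472, 0.000191 and 0.00111).

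Axl had 544, 257 and 484 CPM in lipid-laden MDM, against 289.7, 312, 397 and 331 CPM in non-lipid-laden MDM. The lipid-laden libraries fell on both sides of the non-lipid-laden ones, and the log2 difference of 0.37 (SE 0.23) was not called (edgeR adjusted p = 0.383). It was 0.62 without both lipid-laden libraries of number 221 (SE 0.20, edgeR adjusted p = 0.0882). Mfge8 had 60.3, 36.1 and 47.0 CPM in lipid-laden MDM and 56.5, 58.7, 97.7 and 41.9 CPM in non-lipid-laden MDM, which overlapped (log2 difference -0.41, SE 0.29, edgeR adjusted p = 0.447). Tyro3 had 3, 0 and 15 counts in lipid-laden MDM and 0 in every non-lipid-laden MDM library. Its mean was at least 7.73-fold higher at a floor of 3 counts over the group, with an edgeR adjusted p of 0.18, and 1 lipid-laden library was also at 0.

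Timd4 went the other way in level. It had 20, 20 and 29 counts in lipid-laden MDM (2.16, 2.20 and 2.74 CPM), against 298, 255, 171 and 367 counts in non-lipid-laden MDM (22.3 to 33.2 CPM). The groups did not overlap, and the mean in lipid-laden MDM was 0.0822 of that in non-lipid-laden MDM. The log2 difference of -3.60 (SE 1.04) had an edgeR adjusted p of 0.0529 and was not called in the fit of all 15 libraries. That p moved to 0.00241 without non-lipid-laden microglia of number 224, the 1 microglia library with Timd4 counts, and to 0.000333 with only the MDM groups in the fit. With DESeq2 it was 0.000926 and with limma-voom 0.000693, while over the 15 fits that left out 1 library each it was 0.00241 to 0.144 by edgeR, on both sides of the threshold. It passed (0.00241 to 0.0478) when any 1 of the non-lipid-laden microglia libraries was left out, and likewise without lipid-laden microglia of number 224, 221 or 431.

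The marker lists moved alongside. In lipid-laden against non-lipid-laden MDM, 9 of the 10 microglia markers were higher and 0 lower, and 4 of the 10 markers of monocyte-derived macrophages were lower and 0 higher. Sall1, a transcription factor that marks microglia in the brain, averaged 44.3 ± 4.86 CPM in lipid-laden MDM (n = 3) and 7.54 ± 2.69 CPM in non-lipid-laden MDM (n = 4), with 110.3 ± 45.1 CPM in lipid-laden microglia and 147 ± 35.5 CPM in non-lipid-laden microglia (SD, n = 4 each). Of the 8 dendritic cell markers, 5 were lower in lipid-laden MDM, Flt3 and Zbtb46 among them, and 0 were higher. Of the 8 markers of glioma and progenitor cells, 4 were higher, with a summed level of 65.1 to 133 CPM in lipid-laden MDM and at most 24.6 CPM in non-lipid-laden MDM. Of the 10 markers of border macrophages, which line vessels and meninges, 1 was higher and 1 lower (summed level 1045 to 1300.1 CPM in lipid-laden MDM and 708 to 1125 CPM in non-lipid-laden MDM), and Lyve1 was at 0 in all non-lipid-laden MDM libraries. The part of these markers in the differences of Mertk, Gas6, Pros1 and Timd4 was not tested.

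**Figure D3:**
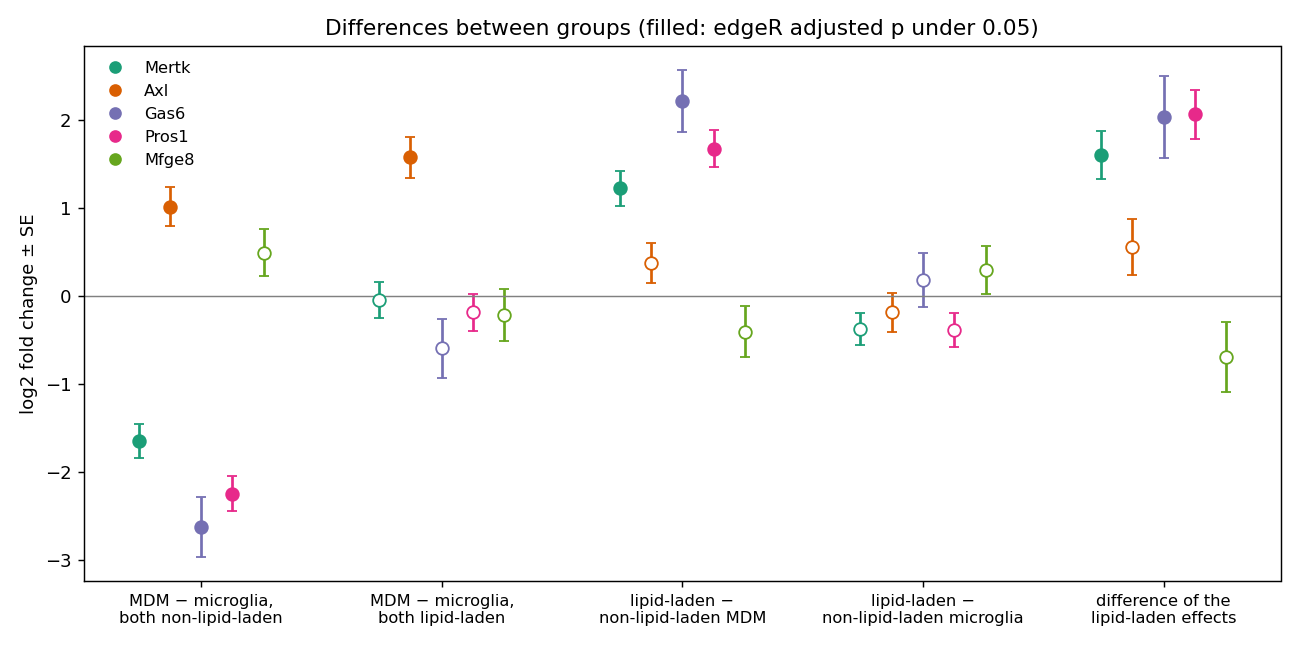
Log2 differences (vertical axis) with their standard errors for the 5 genes with counts in every library, by comparison (horizontal axis), with filled symbols for edgeR adjusted p under 0.05. Mertk (1.22), Gas6 (2.21) and Pros1 (1.67) are higher in lipid-laden than in non-lipid-laden MDM, whereas their values for lipid-laden against non-lipid-laden microglia lie between -0.39 and 0.18.

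Within microglia, none of the 7 genes was called between lipid-laden and non-lipid-laden cells. The edgeR test called 0 of the 14843 genes (0% of all genes), with 1367 at an unadjusted p under 0.05. DESeq2 called 164 genes and limma-voom 0, and edgeR with the replicate number as a block, which pairs these libraries, called 119 genes and 0 of the 7. The ranges of the groups overlapped for all 7 genes, while they did not for 5.46% of all genes.

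Mertk had 203, 208, 197 and 174 CPM in lipid-laden microglia and 293, 247, 203 and 272 CPM in non-lipid-laden microglia. It was lower in the lipid-laden library of all 4 number-matched pairs, but the ranges overlapped, with a log2 difference of -0.38 (SE 0.18, edgeR adjusted p = 0.55). Pros1 had 469, 445, 350.3 and 466 CPM in lipid-laden microglia and 542, 736, 461 and 528 CPM in non-lipid-laden microglia. It too was lower in 4 of 4 pairs, with a log2 difference of -0.39 (SE 0.19, edgeR adjusted p = 0.563). These errors are from the fit without pairing. With the replicate number as a block the difference was -0.37 for Mertk (SE 0.17, edgeR adjusted p = 0.401). For Pros1 it was then -0.37 (SE 0.13, edgeR adjusted p = 0.255). Gas6 had 529, 284, 428 and 543 CPM in lipid-laden microglia and 432, 342, 347 and 456 CPM in non-lipid-laden microglia, higher in 3 of 4 pairs (log2 difference 0.18, SE 0.31, edgeR adjusted p = 0.944). Number 221 was the pair in which Gas6 was lower.

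Axl had 142, 160.4, 107 and 169 CPM in lipid-laden microglia and 135, 211, 157 and 155 CPM in non-lipid-laden microglia, higher in 2 of 4 pairs (log2 difference -0.19, SE 0.22, edgeR adjusted p = 0.885). Mfge8 had 43.2, 54.1, 53.0 and 71.8 CPM in lipid-laden microglia and 30.3, 51.2, 44.8 and 55.5 CPM in non-lipid-laden microglia. It was higher in 4 of 4 pairs and overlapped between groups (log2 difference 0.29, SE 0.27, edgeR adjusted p = 0.839). With the replicate number as a block the edgeR adjusted p of Mfge8 was 0.741. Tyro3 had 0, 16, 0 and 15 counts in lipid-laden microglia and 1, 12, 0 and 18 counts in non-lipid-laden microglia, so the same numbers, 221 and 718, held nearly all of its counts in both groups. Timd4 had 0 counts in all 4 lipid-laden microglia libraries and 12 counts, all in 1 library, in non-lipid-laden microglia.

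The difference between lipid-laden and non-lipid-laden cells was not the same in MDM and microglia for Mertk, Gas6 and Pros1. It is called the lipid-laden effect below, a name for a contrast of sorted groups, since no treatment was named. The test of the difference itself (MDM effect minus microglia effect, log2) gave 1.60 for Mertk (SE 0.27, edgeR adjusted p = 0.00522), 2.03 for Gas6 (SE 0.47, edgeR adjusted p = 0.0298) and 2.06 for Pros1 (SE 0.28, edgeR adjusted p = 0.00314). All 3 were higher, where 2.53% of all genes were called (1.60% higher and 0.930% lower). Gas6 was near the threshold: in 8 of the 15 fits that left out 1 library each, its edgeR adjusted p was 0.0518 to 0.101, with log2 values of 1.75 to 1.99. Those libraries were non-lipid-laden microglia of 224 and 718, lipid-laden microglia of 221 and 431, non-lipid-laden MDM of 224 and 221, and lipid-laden MDM of 224 and 718. With the replicate number as a block Gas6 was at 1.99 (SE 0.32, edgeR adjusted p = 0.00441). Under that block without replicate 718 its edgeR adjusted p was 0.0713. Without both lipid-laden libraries of number 221 Gas6 was at 2.18 (SE 0.37, edgeR adjusted p = 0.0115). DESeq2 gave 1.98 for Gas6 (DESeq2 adjusted p = 0.000859). In the main fit, without a block, the value was 0.55 for Axl (SE 0.32, edgeR adjusted p = 0.417). It was -0.70 for Mfge8 (SE 0.40, edgeR adjusted p = 0.407), and neither passed. Of the microglia markers, 8 of 10 were higher and 0 lower in the same test, and their part in it was not tested.

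Among lipid-laden cells, Axl and Timd4 separated MDM from microglia. They were 2 of the 7 genes, both higher, where 2.78% of all genes were called (2.20% higher and 0.579% lower). They were also the 2 genes whose ranges did not overlap, against 12.5% of all genes. Axl had 544, 257 and 484 CPM in lipid-laden MDM and 142, 160.4, 107 and 169 CPM in lipid-laden microglia. The groups did not overlap, and the log2 difference was 1.57 (SE 0.23, edgeR adjusted p = 0.0014). Timd4 had 20, 20 and 29 counts in lipid-laden MDM and 0 counts in all lipid-laden microglia, at least 30.6-fold higher at a floor of 3 counts over the group (edgeR adjusted p = 0.0206). That call was lost with only the lipid-laden groups in the fit (adjusted p = 0.0908), without lipid-laden MDM of number 224 (0.0579) and without both lipid-laden libraries of number 221 (0.0575), all by edgeR. The difference of Axl was 1.89 without both libraries of number 221 (SE 0.22, edgeR adjusted p = 0.000588). With the replicate number as a block it was 1.55 (edgeR adjusted p = 0.00394), but under that block its call was lost without replicate 224 (1.29, edgeR adjusted p = 0.0668) and without replicate 718 (1.53, edgeR adjusted p = 0.0774). In the same comparison 6 of 10 markers of monocyte-derived macrophages and 6 of 8 dendritic cell markers were higher and 0 lower, and 1 of 10 microglia markers was lower. Their part in the differences was not tested.

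Mertk, Gas6 and Pros1, which separated the non-lipid-laden cells, were not called between the lipid-laden ones. The log2 difference was -0.05 for Mertk (SE 0.20, edgeR adjusted p = 0.954), -0.60 for Gas6 (SE 0.34, edgeR adjusted p = 0.456) and -0.19 for Pros1 (SE 0.21, edgeR adjusted p = 0.764). Mertk levels of 180.0 to 196 CPM in lipid-laden MDM lay inside the 174 to 208 CPM of lipid-laden microglia. For Gas6, lipid-laden MDM were lower in 3 of 3 pairs, so the missed threshold does not show equal levels. These values are from the fit without pairing. With the replicate number as a block the difference was -0.68 for Gas6 (SE 0.24, edgeR adjusted p = 0.167). It was then -0.10 for Mertk (SE 0.19, edgeR adjusted p = 0.868) and -0.32 for Pros1 (SE 0.15, edgeR adjusted p = 0.309). Mfge8 (-0.22, SE 0.29, edgeR adjusted p = 0.815) and Tyro3 (18 counts over 3 lipid-laden MDM libraries and 31 over 4 lipid-laden microglia libraries) were not called either.

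Ratios within a library do not depend on how libraries are scaled to each other. The log2 ratio of Axl to Mertk counts was 1.11 ± 0.52 in lipid-laden MDM (SD, n = 3; 0.52 to 1.47), 2.07 ± 0.48 in non-lipid-laden MDM (SD, n = 4; 1.42 to 2.51), -0.45 ± 0.34 in lipid-laden microglia (SD, n = 4; -0.87 to -0.05) and -0.63 ± 0.41 in non-lipid-laden microglia (SD, n = 4; -1.12 to -0.23). Axl counts thus exceeded Mertk counts in all 7 MDM libraries and in none of the 8 microglia libraries. The ratio of lipid-laden MDM overlapped that of non-lipid-laden MDM by a small margin. The log2 ratio of Pros1 to Gas6 counts was 0.47 ± 1.25 in lipid-laden MDM (-0.43 to 1.90), 0.97 ± 0.60 in non-lipid-laden MDM (0.45 to 1.51), -0.01 ± 0.44 in lipid-laden microglia (-0.29 to 0.65) and 0.52 ± 0.41 in non-lipid-laden microglia (0.21 to 1.11; SD, n = 3 in lipid-laden MDM and n = 4 in the others). In both lipid-laden groups and in non-lipid-laden microglia the highest ratio of Pros1 to Gas6 was that of number 221. In non-lipid-laden MDM number 221 had 1.47, next to 1.51 for number 224.

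**Figure D4:**
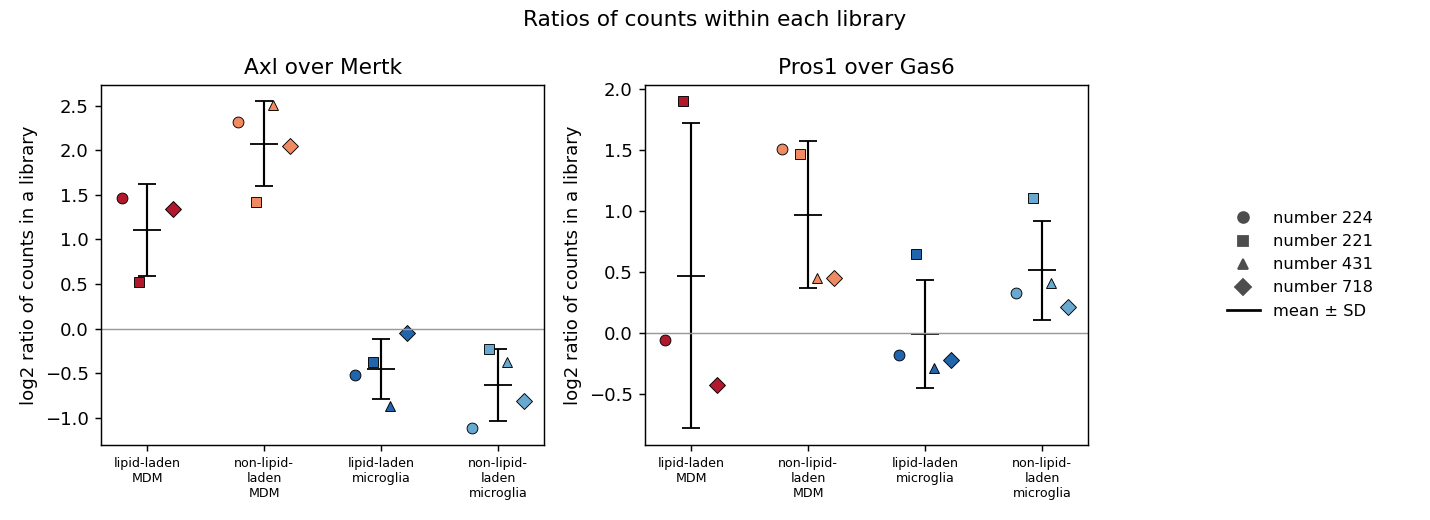
Log2 ratio of Axl to Mertk counts and of Pros1 to Gas6 counts (vertical axes) in each library of the 4 groups (horizontal axis), with symbols for the replicate numbers and bars for the mean and SD. The ratio of Axl to Mertk lies above 0 in all MDM libraries (0.52 to 2.51) and below 0 in all microglia libraries (-1.12 to -0.05).

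Across the 15 libraries, Mertk, Gas6 and Pros1 had like patterns, which repeats the group differences. Pearson's r of log2 CPM was 0.93 between Mertk and Pros1, 0.87 between Mertk and Gas6 and 0.84 between Gas6 and Pros1. As deviations from the group means over the same 15 libraries, r was 0.22, 0.12 and -0.39 for these pairs, so within groups the libraries high for one gene were not regularly high for the others. Timd4 ran against them, with r of -0.82 to Mertk, -0.87 to Gas6 and -0.88 to Pros1. Among 9105 other genes of sufficient level, the most alike pattern to Mertk was that of C4b (r = 0.97), which encodes complement C4, followed by Tbc1d19 and Ctsf, the gene of cathepsin F (r = 0.95 each). Gas6 was most like Abhd12, Naglu and Pld3 (r = 0.97 each), and Pros1 was most like Ccl2, which encodes a chemokine for monocytes (r = 0.98), Cntn1 and Scrg1 (r = 0.97 each). The pattern of Axl was nearest to Mmp14, a membrane-bound matrix protease (r = 0.93), Iqgap2 (r = 0.92) and Lst1 (r = 0.91). Timd4 was most like H2-DMb2, which acts in antigen loading of class II molecules, Klrd1 and Cd209a, a lectin of monocyte-derived dendritic cells (r = 0.98 each). Cd209a averaged 29.9 ± 16.7 CPM in lipid-laden MDM (n = 3), 301 ± 216 CPM in non-lipid-laden MDM, 0 in lipid-laden microglia and 2.98 ± 5.97 CPM in non-lipid-laden microglia (SD, n = 4 each). The value of H2-DMb2 is uncertain, since reads of such a near-identical family can be split between copies. The nearest patterns were less alike for Mfge8 (Snd1, r = 0.78) and Tyro3 (Nnat, r = 0.83). These correlations share the libraries and their groups and are a description.

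The other genes of the pathway were taken from lists of 98 symbols, of which 97 were found in the table and 91 passed the filter on low counts. Between lipid-laden and non-lipid-laden MDM, 19 were higher and 3 lower, where 5.21% of all genes were higher and 2.96% lower. The median log2 difference was 0.22, against 0.04 over all genes tested. Between non-lipid-laden MDM and non-lipid-laden microglia, 18 were higher and 24 lower (median -0.24, against -0.12 over all genes). Of all genes, 10.7% were higher and 12.5% lower there. Between lipid-laden MDM and lipid-laden microglia, 7 were higher and 0 lower (median 0.13, against -0.03 over all genes). Of all genes, 2.20% were higher and 0.579% lower there. In the test of the difference between the lipid-laden effects in MDM and microglia, 9 were higher and 1 lower (median 0.26, against 0.10 over all genes). Of all genes, 1.60% were higher and 0.930% lower there. Between lipid-laden and non-lipid-laden microglia 0 were called by edgeR and 1 with the replicate number as a block (median 0.06, against -0.02 over all genes). DESeq2 called 3 there, edgeR with no filter on low counts called 1 and limma-voom called 0. Lgals3, a listed bridging factor, averaged 1416 CPM in lipid-laden microglia and 524 CPM in non-lipid-laden microglia. It was not called (log2 difference 1.43, SE 0.27, edgeR adjusted p = 0.0717), and its adjusted p equalled the lowest of all genes in that comparison. The part of the marker differences given above in these counts of called genes was not tested either.

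Among other bridging and opsonising factors, the complement genes were lowest in non-lipid-laden MDM, as Mertk was. C1qc, a subunit of C1q, which binds dying cells, averaged 3898 ± 181 CPM in lipid-laden MDM (n = 3), 1836 ± 227 CPM in non-lipid-laden MDM, 4374 ± 657 CPM in lipid-laden microglia and 4371 ± 466 CPM in non-lipid-laden microglia (SD, n = 4 each). It rose by 1.09 on the log2 scale in lipid-laden against non-lipid-laden MDM (edgeR adjusted p = 0.000188). C1qa (1.09), C1qb (0.80) and C4b (2.86) also rose there, so 4 of 12 listed factors were higher and 0 lower (5.21% and 2.96% of all genes). The same 4 were lower in non-lipid-laden MDM than in non-lipid-laden microglia, with log2 differences of -1.30 for C1qa, -0.90 for C1qb, -1.25 for C1qc and -3.52 for C4b. Thbs1, which encodes thrombospondin 1, a bridge between dying cells and CD36, had another pattern. It averaged 1048 ± 518 CPM in lipid-laden MDM (n = 3), 1038 ± 181 CPM in non-lipid-laden MDM, 78.7 ± 38.8 CPM in lipid-laden microglia and 41.6 ± 20.7 CPM in non-lipid-laden microglia (SD, n = 4 each), with log2 differences of 4.64 between the non-lipid-laden groups (edgeR adjusted p = 6.88e-06) and 3.73 between the lipid-laden groups (edgeR adjusted p = 0.000441).

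Of 15 other receptors tested, 2 were higher in lipid-laden than in non-lipid-laden MDM and 0 lower (5.21% and 2.96% of all genes). Stab1, a scavenger receptor that binds phosphatidylserine, rose by 1.48 on the log2 scale (SE 0.33, edgeR adjusted p = 0.0123). Lrp1, which takes part in uptake through calreticulin, rose by 1.10 (SE 0.26, edgeR adjusted p = 0.0166). Between the non-lipid-laden groups 2 receptors were higher and 4 lower in MDM (10.7% and 12.5% of all genes). The integrin subunits Itgb3 (-2.13, SE 0.42) and Itgb5 (-0.98, SE 0.21), partners of alpha-v in the receptors of MFG-E8, were among the lower ones, and Cd300a, an inhibitory receptor for phosphatidylserine, was higher (1.85, SE 0.15, edgeR adjusted p = 6.5e-07). Cd300a was also the 1 receptor of the 15 called between lipid-laden MDM and lipid-laden microglia (1.22, SE 0.15, edgeR adjusted p = 0.0004).

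Find-me receptors guide phagocytes to dying cells. Of 8, 4 were higher in lipid-laden than in non-lipid-laden MDM, where 5.21% of all genes were higher. They were P2ry12 (1.73), S1pr1 (1.43), Cx3cr1 (1.31) and P2ry6 (0.93). P2ry12 is also 1 of the 10 microglia markers. Between the non-lipid-laden groups 5 were lower in MDM and 1 was higher (12.5% and 10.7% of all genes). The higher one was the lysophosphatidylcholine receptor gene Gpr132 (8.77, SE 0.89, edgeR adjusted p = 5.71e-06). None of 12 engulfment genes was called between lipid-laden and non-lipid-laden MDM, while 4 of 13 genes of phagosome maturation and digestion were higher and 0 lower. These were the lysosomal membrane protein genes Lamp1 (1.10) and Lamp2 (0.61), the lysosomal nuclease gene Dnase2a (0.82) and Lipa (0.93), whose product cleaves cholesteryl esters in the lysosome. Lipa averaged 739 ± 178 CPM in lipid-laden MDM and 388 ± 60.9 CPM in non-lipid-laden MDM (SD, n = 3 and n = 4).

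Among the 8 don't-eat-me signals, 1 was higher and 2 lower in lipid-laden than in non-lipid-laden MDM (5.21% and 2.96% of all genes). Sirpa, the receptor of CD47 on phagocytes, rose by 0.81 (SE 0.19, edgeR adjusted p = 0.0132), while Cd47 fell by 0.89 (SE 0.21, edgeR adjusted p = 0.0169) and the inhibitory receptor gene Pirb fell by 1.13 (SE 0.32, edgeR adjusted p = 0.0384). Pirb belongs to a family of near-identical genes, so its value is uncertain. Of 4 genes that set the shedding of the receptors, Adam10 was higher in lipid-laden MDM (0.81, SE 0.17, edgeR adjusted p = 0.00866), and Adam17 was not called there (0.54, SE 0.18, edgeR adjusted p = 0.0756). Among 13 regulators, Rxra, the partner of liver X receptors (1.46), Maf (1.31) and Irf8 (0.61) were higher in lipid-laden MDM and Socs1, a suppressor of cytokine signals (-1.21), was lower. Nr1h3, which encodes liver X receptor alpha, averaged 38.9 ± 5.21 CPM in lipid-laden MDM (n = 3), 38.4 ± 16.2 CPM in non-lipid-laden MDM, 4.87 ± 3.29 CPM in lipid-laden microglia and 3.00 ± 2.17 CPM in non-lipid-laden microglia (SD, n = 4 each). Its level therefore separated MDM from microglia, with log2 differences of 3.68 between the non-lipid-laden groups (edgeR adjusted p = 0.00198) and 2.99 between the lipid-laden groups (edgeR adjusted p = 0.0385), and it was not called between lipid-laden and non-lipid-laden MDM (0.02, SE 0.70, edgeR adjusted p = 0.998).

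**Figure D5:**
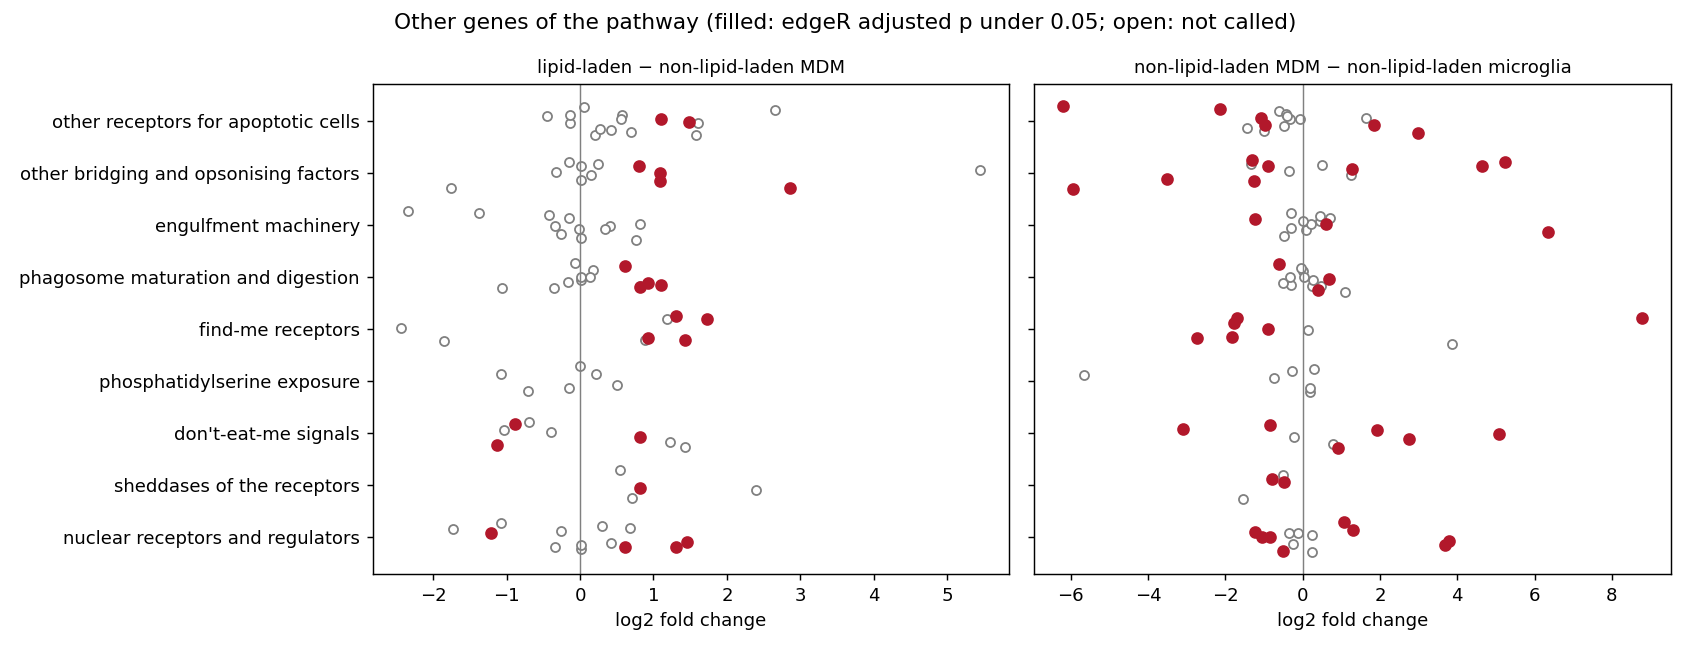
Log2 fold changes (horizontal axes) of the 91 other pathway genes tested, by list (vertical axis), for lipid-laden minus non-lipid-laden MDM and for non-lipid-laden MDM minus non-lipid-laden microglia, where filled points have an edgeR adjusted p under 0.05 and the largest values belong to genes near 0 in 1 of the groups. Filled points number 19 above 0 and 3 below in the first panel and 18 above and 24 below in the other. Of all genes, 5.21% were higher and 2.96% lower in the first comparison, and 10.7% and 12.5% in the other.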

How the data were processed

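Sorted mouse glioma macrophages had been sequenced in bulk in 15 libraries. Per the labels' protocols, RNA of integrity number above 8 was isolated on columns with DNase digestion, and libraries were made by oligo-dT priming and template switching. The authors deposited whole-number read counts per gene, not normalized, with Ensembl identifiers, symbols and coordinates, per the file header. The build is mm10, per the submitters' processing notes, and the sources used here name no aligner, counting program or strand setting. A row without a gene name held 0% of counts and was left out.

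Each library was assigned to a group by its title. The test was that of edgeR 4.0.16 under R 4.3.3 (quasi-likelihood F test, TMM scaling, filterByExpr with a minimum count of 10 and a minimum total of 15), with all 15 libraries in 1 fit and 1 coefficient per group. P-values were adjusted by Benjamini-Hochberg over the 14843 genes that passed the filter, of 55486, and called under 0.05 with no minimum fold. Each standard error is the absolute log2 difference divided by the root of F. Library totals of 7798952 to 11419338 set the precision, and bounds against a group at 0 used a floor of 3 counts over the group, which covers counting error only. CPM used TMM-scaled library sizes, and CPM per kb used merged exons of GENCODE M21, where 55140 of the identifiers were found. No 2 libraries of a group held the same counts within sampling noise (chi-square divided by its degrees of freedom was 17.3 or more).

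Alternatives were size factors by RLE, no filter, DESeq2 1.42.0, limma-voom (limma 3.58.1), the replicate number as a block, only the groups compared, each library left out, and, chosen after seeing the data, leaving out both lipid-laden libraries of number 221. Deviations from group means correlated between same-numbered libraries at 0.124 to 0.256 for lipid-laden against non-lipid-laden microglia (4 pairs) and 0.107 to 0.168 for lipid-laden MDM against lipid-laden microglia (3 pairs), and these were taken as paired, a pairing that comes from the data and the shared numbers. The test was checked on simulated counts. The 7 genes, the other pathway lists (98 symbols, 97 matched) and the marker lists were chosen with earlier results of these data known. Named genes were all 7 members, up to 4 called genes of smallest p per list and comparison, the 3 genes of highest Pearson correlation with each member among tested genes (average log2 CPM 3 or more), and list genes that share a member's role. Promoter windows are from RefSeq, GRCm38.p6, and all 7 genes were matched.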

Additional observations from a re-analysis of the deposited data

Results flagged for a closer look

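Timd4 had 12 counts (1.29 CPM) in non-lipid-laden microglia of number 224 and 0 in the other 3 libraries of that group, so this library stood far from the others by Dixon's criterion. The criterion was applied to 19 groups of values, and chance gives about 1 flag in 20 where values are not tied. Here the other 3 values were all 0, so any count above 0 would have been flagged. The flag therefore adds nothing to the counts themselves. Without this library the edgeR adjusted p of Timd4 between lipid-laden and non-lipid-laden MDM was 0.00241 instead of 0.0529. The 8 dendritic cell markers summed to 38.9 CPM in this library. They summed to 33.7, 31.0 and 21.7 CPM in non-lipid-laden microglia of numbers 221, 431 and 718. Their part in the Timd4 counts was not tested.

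The lipid-laden effect differed between MDM and microglia by the test of the difference itself for 3 genes. The difference (MDM minus microglia, log2) was 1.60 for Mertk, 2.03 for Gas6 and 2.06 for Pros1. In MDM all 3 genes were higher in the lipid-laden library in 3 of 3 pairs. In microglia, Mertk and Pros1 were lower in 4 of 4 pairs and Gas6 was higher in 3 of 4. Microglia markers moved in the same direction in this test (8 of 10 higher), and their part was not tested.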

How the results depend on the processing

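Counts of all genes called were 17 with no filter, 164 with DESeq2 and 119 with the replicate block between lipid-laden and non-lipid-laden microglia (0 in the main analysis), 1982 with DESeq2 between lipid-laden and non-lipid-laden MDM (1213), and 798 with DESeq2 and 176 with the compared groups alone between lipid-laden MDM and lipid-laden microglia (413). For the difference of the lipid-laden effects they were 960 with DESeq2 and 657 with the replicate block (375). Of the 7 genes, 1 instead of 2 was called between the lipid-laden groups with these groups alone, and 1 without both lipid-laden libraries of number 221.

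Leaving out 1 library gave 0 to 64 genes for lipid-laden against non-lipid-laden microglia (64 without lipid-laden microglia 224), 657 to 1383 for lipid-laden against non-lipid-laden MDM (lowest without lipid-laden MDM 718), 168 to 431 for lipid-laden MDM against lipid-laden microglia (lowest without lipid-laden MDM 224, with 1 to 2 of the 7 genes) and 186 to 452 for the difference of effects (lowest without lipid-laden MDM 718). Under the replicate block, leaving out replicates 224, 221 and 431 gave 68, 17 and 13 genes within microglia. Leaving out replicates 224 and 718 gave 761 and 456 for lipid-laden against non-lipid-laden MDM and 217 and 148 between the lipid-laden groups. Leaving out replicate 718 gave 2252 for non-lipid-laden MDM against microglia and 58, with 1 of the 7 genes, for the difference of effects. Between the lipid-laden groups this left 1 of the 7 genes called without 224, 221 or 431 and 0 without 718. With all libraries the block added Timd4 between lipid-laden and non-lipid-laden MDM (adjusted p = 0.0472) and changed no other call of the 7 genes. For non-lipid-laden MDM with microglia, deviations correlated at 0.0152 to 0.15 between same-numbered libraries and -0.134 to 0.0296 between differently numbered ones. For lipid-laden with non-lipid-laden MDM these were 0.0272 to 0.123 and -0.0767 to 0.0559. The ranges overlapped in both comparisons, so they were not taken as paired, and so few pairs cannot show that pairing was absent.

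Signs turned in values that were not called. Between the lipid-laden groups, Mertk was 0.02 without both libraries of 221, Tyro3 was 0.10 with limma-voom, 0.77 without both libraries of 221, -2.18 to 0.19 without 1 library and 1.39 under the block without replicate 221, and Mfge8 was 0.09 and 0.08 under the block without replicates 221 and 718. Tyro3 within microglia was -0.81 to 0.79 without 1 library and 0.05 under the block without replicate 224, and the difference of effects for Timd4 was -2.29 with limma-voom (1.08 in the main analysis). The cause was not tested. Timd4 was given no value where both groups were at 0. Tyro3, with 31 counts or fewer per group, is limited by depth.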
